A study of Bos taurus with 8 samples.

Results

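The muscle and neural miRNAs are genes whose mature products are made mainly in skeletal muscle, heart or nervous tissue. They were examined in liver libraries as candidate markers of foreign tissue. Whether their reads here come from such tissue was not tested. They were taken by name from the miRNA genes of the count table as miR-1, miR-133a, miR-133b, miR-206, miR-208a, miR-208b, miR-499, miR-9, miR-124a and miR-124b, with their numbered copies. The rule found 14 of the 1153 miRNA genes in the table, 9 of them muscle genes and 5 of them neural genes. Small RNA was sequenced from the liver of 8 Holstein Friesian cows killed at about 14 days postpartum, with 1 library per cow. The 4 cows in mild negative energy balance (MNEB, libraries 2M, 3M, 4M and 5M) had free access to grass silage and 8 kg of concentrate a day, and were milked 1 time a day. The 4 cows in severe negative energy balance (SNEB, libraries 7S, 8S, 9S and 10S) had 25 kg of silage and 4 kg of concentrate a day, and were milked 3 times a day. Each library came from a piece of whole liver, so it holds the RNA of all cell types in that piece, and a smaller number of cells of a type cannot be told apart from less RNA per cell.

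Library 2M carries a title of the MNEB series and a treatment label of severe negative energy balance, and it was analysed as MNEB. The libraries held 21617227 to 33963761 uniquely aligned reads in genes, and miRNA genes took 98.7% to 99.5% of them. The hepatocyte miRNA miR-122 took 60.9% to 91.9% of the miRNA reads. Library 5M stood apart with the highest share of miR-122 and a TMM scaling factor of 0.326, against 0.956 to 1.88 in the other 7 libraries. The liver label was borne out by mRNA fragments. All 10 hepatocyte genes listed (albumin, apolipoproteins and others) had reads in every library, with a sum of 6910 to 51575 reads per library.

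In striated muscle, miR-1 and miR-133 are made from shared transcripts and act on the growth and differentiation of muscle cells. miR-206 is a relative of miR-1 that is typical of skeletal muscle, and it lies beside miR-133b. miR-208a, miR-208b and miR-499 are known as the miRNAs of the myosin genes, since each is made from an intron of a myosin heavy chain gene, and they share a seed, the stretch at the 5′ end that pairs with target mRNAs. miR-9 and miR-124 are typical of neural progenitors and neurons. Adult liver is not a known site of abundant expression for any of them.

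One of the 14 genes, miR-499, was present at a moderate level in every liver library, miR-206 was present at a low level, and the other 12 were near or below the limit of detection. The 14 genes received 2202 reads over the 8 libraries, and 2018 of these (91.6%) were reads of miR-499. A read was found in every library for 2 genes, miR-499 and miR-206, and these were also the 2 genes with a read in each of the other 7 libraries when library 5M was left out. At least 3 reads in every library were found for 1 gene, miR-499. No read was found in any library for 7 of the 14 genes. Of all 619 miRNA genes that carry a name in the table, 29.6% had no read.

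The precision of these values is set by depth. A count of 0 allows up to 3 reads, which is 0.0883 RPM (reads per 1000000 reads in genes) in library 5M, the deepest, and 0.139 RPM in library 7S, the shallowest. Over the 8 libraries together, 207883876 reads, the limit is 0.0144 RPM. The exact 95% Poisson interval of a count of 0 reaches further, to 3.69 reads, or 0.0177 RPM over the 8 libraries. Intervals given for single libraries are exact 95% Poisson intervals of the count, and like the limits they cover counting error only, since copies of a molecule made by PCR are counted as reads. RPM was not divided by length, as a read of a miRNA spans the mature sequence and mature miRNAs are of nearly equal length.

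miR-499 (bta-mir-499, ENSBTAG00000029949), which is known from heart and slow skeletal muscle, had 140 to 377 reads per library. Its levels were 9.65, 12.3, 10.8 and 4.12 RPM in MNEB libraries 2M, 3M, 4M and 5M, and 9.48, 9.89, 11.1 and 12.0 RPM in SNEB libraries 7S, 8S, 9S and 10S. Library 5M was the lowest and the other 7 libraries lay within 1.29-fold of each other, so that the groups overlapped. The mean was 9.22 ± 3.56 RPM in MNEB and 10.6 ± 1.14 RPM in SNEB (SD, n = 4 each). With a mean of 9.92 RPM over 8 libraries, miR-499 was placed 121 among the miRNA genes. The genes placed next above were miR-223, miR-26a-2 and miR-485, at means of 10.0, 10.3 and 10.3 RPM. Those placed next below were miR-181d, miR-411c and miR-495, at 9.91, 9.09 and 7.72 RPM. The ranges of all 6 overlapped that of miR-499, so the order among them is not fixed by these libraries.

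miR-499 varied little between libraries for a miRNA of its level. Its coefficient of variation was 38.6% in MNEB and 10.8% in SNEB, where counting error alone would give 6.37% and 6.23%. Among the 20 miRNA genes nearest in rank the median was 69.0% in MNEB and 32.4% in SNEB, and in either group 1 of the 20 had a lower value than miR-499.

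**Figure D1:**
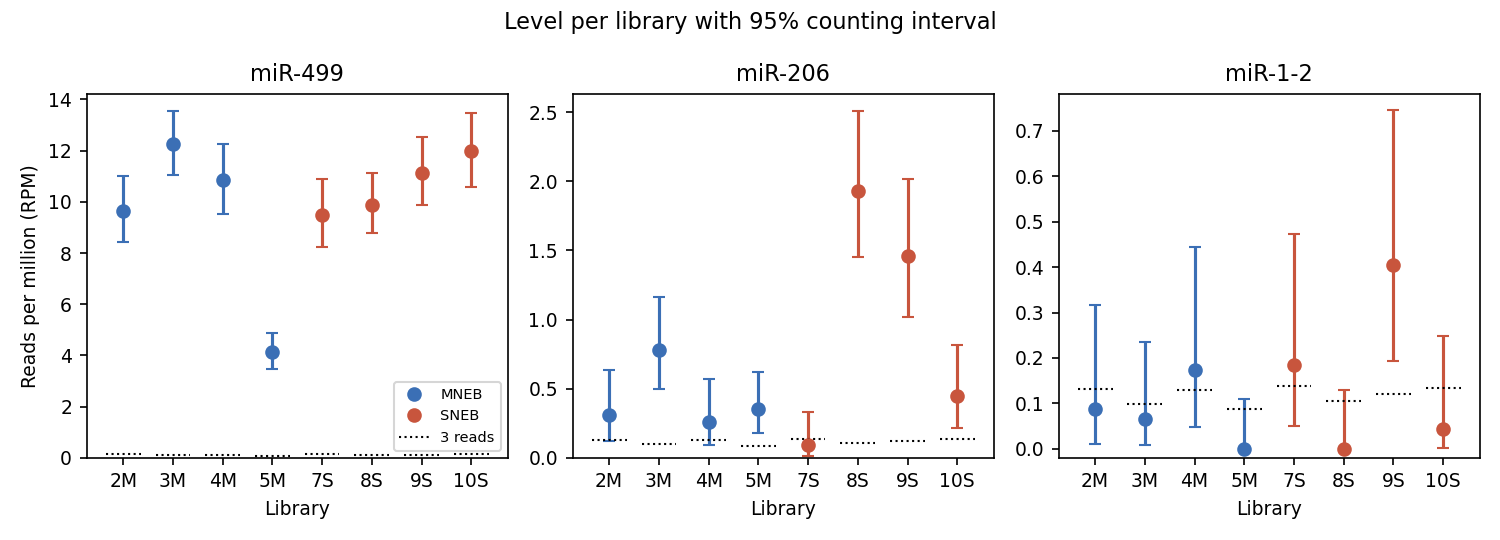
Level of miR-499, miR-206 and miR-1-2 in RPM (vertical axis, a scale for each panel) in each of the 8 libraries (horizontal axis), MNEB in blue and SNEB in red. Bars are exact 95% Poisson intervals and dotted lines mark 3 reads. miR-499 was far above 3 reads in every library and lowest in 5M at 4.12 RPM, miR-206 was highest in 8S at 1.93 RPM and in 9S at 1.46 RPM, and miR-1-2 was at or near the limit except in 9S at 0.405 RPM.

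The low value of miR-499 in library 5M went with the high share of miR-122 in that library. With the miRNA reads other than miR-122 as the denominator, in reads per 1000000, miR-499 stood at 40.6, 43.8, 28.1 and 51.3 in libraries 2M to 5M, and at 38.7, 42.6, 34.8 and 48.6 in libraries 7S to 10S. On this scale library 5M was the highest and library 4M the lowest, and the span narrowed from 2.97-fold to 1.83-fold. The groups overlapped here too, at 40.9 ± 9.68 in MNEB and 41.2 ± 5.88 in SNEB (SD, n = 4 each).

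**Figure D2:**
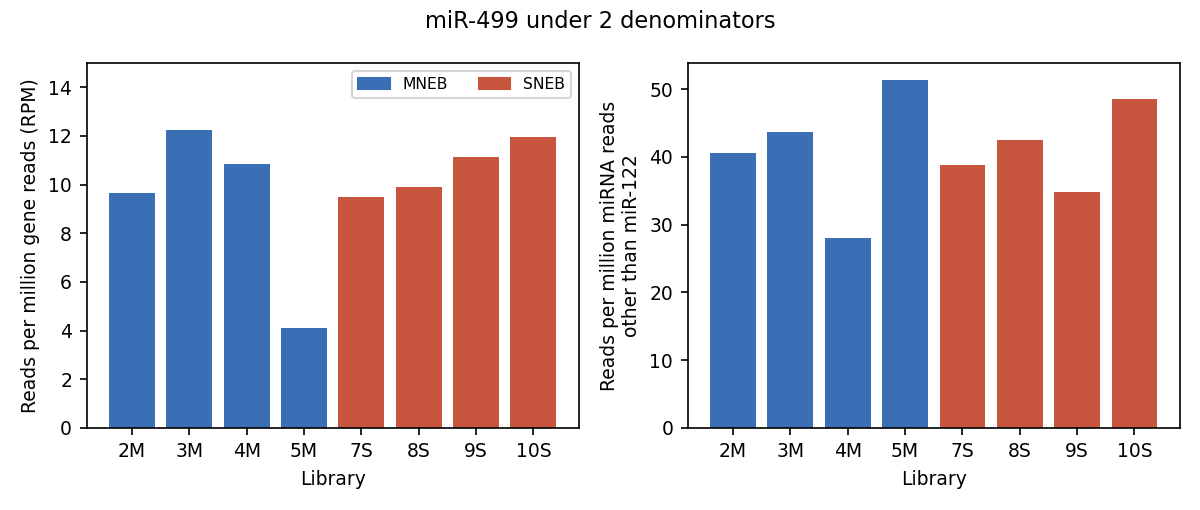
miR-499 in each library (horizontal axis) as RPM (left) and with miRNA reads other than miR-122 as the denominator, in reads per 1000000 (right), with MNEB in blue and SNEB in red. Library 5M was the lowest on the left at 4.12 and the highest on the right at 51.3.

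The myosin relatives of miR-499 had no reads, and its own host gene had 1. RefSeq's genes on ARS-UCD2.0, an assembly other than that of the counts and read only for names and neighbours, include all 14 members. There miR-499 lies within MYH7B, miR-208a within MYH6 and miR-208b within MYH7. miR-208a, known from atrial and ventricular heart muscle, and miR-208b, known from slow muscle, had 0 reads in all 8 libraries, which allows up to 0.0144 RPM for each. The pooled level of miR-499 was 9.71 RPM. MYH7B had 1 read in all, in library 2M. The 2 genes that the table names MYH7, which encodes the slow myosin heavy chain, had 8 and 5 reads over the 8 libraries. Since these are closely related sequences, the split of reads between them is uncertain. A fragment of an mRNA and a mature miRNA are recovered differently in a small RNA library, so their counts are given side by side and not as a ratio.

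miR-206 (bta-mir-206, ENSBTAG00000036400) had counts of 7, 24, 6 and 12 reads in libraries 2M, 3M, 4M and 5M, and of 2, 55, 36 and 10 reads in libraries 7S, 8S, 9S and 10S. The corresponding levels were 0.307, 0.780, 0.260 and 0.353 RPM in MNEB, and 0.0925, 1.93, 1.46 and 0.445 RPM in SNEB. The SNEB libraries held both the highest values and the lowest, so that all 4 MNEB libraries lay inside the SNEB range. The value of 8S, with an interval of 1.45 to 2.51 RPM, was 20.8-fold that of 7S, with an interval of 0.0112 to 0.334 RPM. The counting interval of this ratio was 5.50 to 176. The count of 2 in library 7S is under the limit of 3 reads. miR-206 was placed 230 among the miRNA genes, between miR-26c at 0.705 RPM and miR-183 at 0.680 RPM.

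Unlike miR-499, miR-206 varied widely within SNEB. Its coefficient of variation was 87.3% in SNEB, against 19.7% from counting alone, and 19 of the 20 miRNA genes nearest in rank varied less. In MNEB it was 56.4%, against 28.6% from counting alone, and 4 of the 20 varied less. miR-499 exceeded miR-206 in 8 of 8 libraries, and the ratio of their reads differed between libraries. It was 5.13 in 8S, with an exact 95% counting interval of 3.83 to 6.98, and 26.9 in 10S, with an interval of 14.4 to 56.7. In 7S, where miR-206 had 2 reads, the interval was 28.0 to 852.

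miR-1-2 (ENSBTAG00000029926) is a copy of miR-1, the most abundant miRNA of muscle. Its counts were 2, 2, 4 and 0 reads in libraries 2M to 5M, and 4, 0, 10 and 1 reads in libraries 7S to 10S. Only library 9S, at 0.405 RPM with an interval of 0.194 to 0.745, had 10 reads or more. Library 8S, which had the most reads of miR-206, had none of miR-1-2. miR-206 exceeded miR-1-2 in 7 of 8 libraries, the exception being 7S, and their ranges overlapped. Reads that align equally well to miR-1-1 and miR-1-2 are not counted, so this order does not rank miR-206 against mature miR-1. miR-1-2 was placed 297 among the miRNA genes. In RefSeq it lies within MIB1, together with miR-133a-2, and since the strand setting of the counting is unknown, a share of reads from the other strand cannot be told apart.

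The remaining 11 genes had 0 to 3 reads in total, too few to compare. miR-133b had 1 read in 2M and 2 in 9S, miR-133a-2 had 2 in 9S, and miR-133a-1, which overlaps a further miR-133 gene in RefSeq, had 1 in 8S. The neural gene miR-124a-1 had 1 read in 5M and 2 in 7S. No read was found for miR-1-1, miR-208a, miR-208b, miR-9-1, miR-9-2, miR-124a-2 and miR-124b. The 5 neural genes thus had 3 reads in 207883876, and 4 of the 5 had 0.

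These zeros do not all carry the same weight, because the counts hold uniquely aligned reads. Of the 14 genes, 8 are numbered copies of miR-1, miR-133a, miR-9 and miR-124a, whose copies make the same mature miRNA, and a read that aligns equally well to both copies is not counted. These 8 genes had 29 reads in all, and 4 of them had 0. The other 6 are the single gene of their name in the table. Of these, miR-208a, miR-208b and miR-124b had 0 reads, miR-133b had 3, miR-206 had 152 and miR-499 had 2018. miR-133b differs little from miR-133a, and its count is uncertain for the same reason. A name of its own does not show that a mature sequence is unique, and that of miR-124b was not compared with that of miR-124a. How many reads were lost in this way was not tested. The levels of miR-1, miR-133a, miR-9, miR-124a and miR-124b are therefore uncertain, and the absence of reads does not bound the level of the mature miRNA.

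**Figure D3:**
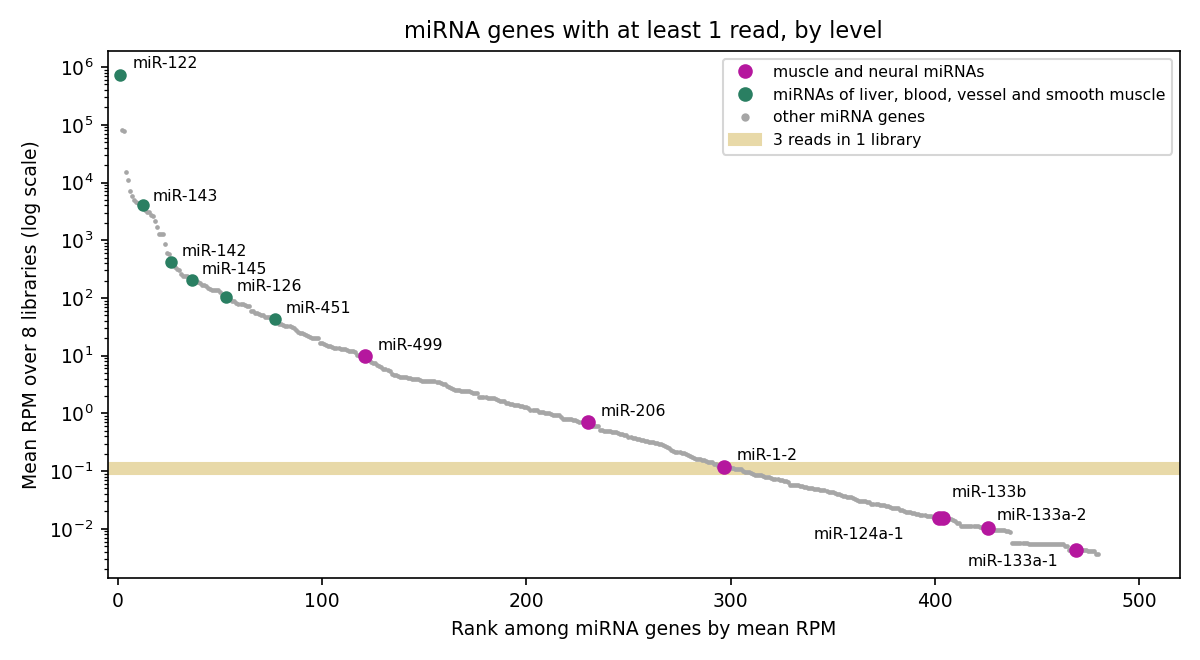
Mean RPM over 8 libraries (vertical axis, log scale) against rank (horizontal axis) for the 480 miRNA genes with at least 1 read. Muscle and neural miRNAs are in purple, miRNAs of hepatocytes (miR-122), blood cells (miR-142, miR-451), endothelium (miR-126) and smooth muscle (miR-143, miR-145) in green, and the band marks 3 reads in 1 library. miR-499 at 9.92 RPM and miR-206 at 0.703 RPM lay above the band, miR-1-2 at 0.120 RPM within it and the other detected members below it.

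Beside miRNAs of cells that do belong to the liver, the muscle miRNAs were low. miR-122 was present at 737078 RPM on average, 74313-fold above miR-499. The red cell miRNA miR-451, the least abundant of the references for blood, vessels and smooth muscle, stood at 43.6 RPM, with a range of 1.65 to 81.7 RPM that overlapped the range of miR-499. miR-142 of white blood cells ranged from 22.8 to 855 RPM, and each library had more of it than of miR-499.

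Several other neural-enriched miRNAs had more reads than the miR-9 and miR-124 genes. The list of 22 neural-enriched genes, miR-9 and miR-124 copies included, had 7 genes with 0 reads and 4 with a read in every library. miR-128-1, known from brain and also made in many other tissues, was the highest at 43.7 ± 29.3 RPM in MNEB and 48.9 ± 11.6 RPM in SNEB (SD, n = 4 each). miR-7-2, known from endocrine and neural cells, averaged 2.58 RPM, miR-128-2 1.64 RPM, miR-129-2 1.04 RPM and miR-138-1 1.01 RPM. The genes of miR-7, miR-128, miR-129 and miR-138 are numbered copies too, whose counts lack any read that aligns equally well to a further copy. miR-132 and miR-212, which are made from a shared transcript that neuronal activity induces, averaged 0.785 and 0.333 RPM. miR-219 of oligodendrocytes averaged 0.163 RPM and miR-137 of neurons 0.125 RPM, both close to the limit of detection in 1 library.

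Among 10 genes typical of still other tissues, 4 had 0 reads and 1 was found in every library. That gene was miR-375 of pancreatic islets and other endocrine cells, which ranged from 1.88 RPM in 5M to 135 RPM in 4M. The others, among them miR-205 of stratified epithelium, miR-217 of the exocrine pancreas and miR-302a of embryonic stem cells, had at most 5 reads in all.

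The question put to the 2 groups of cows was whether the muscle and neural miRNAs differ with the severity of negative energy balance, and no difference was detected. Counts of the 262 miRNA genes with a read in every library were TMM-scaled, and SNEB was set against MNEB in a quasi-likelihood fit of edgeR. P-values were adjusted over the 262 genes by the Benjamini-Hochberg method. miR-499 and miR-206 entered this fit, and 0 of the 2 passed an adjusted p of 0.05, where 0.0% of the 262 genes passed. At an unadjusted p under 0.05 were 14 of the 262 (5.34%), and neither of the 2 was among them. Among the 120 genes above 10 RPM, which include none of the 14, 13.3% had an unadjusted p under 0.05. DESeq2 and edgeR's exact test each called 1 of the 262, which was miR-1247.

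The log2 fold change of miR-499 was -0.04 (SE 0.45) and edgeR gave an adjusted p of 0.994. Its direction was not stable. The value was 0.20 without scaling, 0.13 in the fit over genes with a read in any library and 0.04 with limma voom, and it stayed below 0 with upper quartile and RLE scaling. The difference in mean level was 1.40 RPM, higher in SNEB (exact permutation, two-sided p = 0.629), and it turned to -0.297 RPM without MNEB library 5M. The groups therefore differed by less than the spread of the libraries.

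The fitted ratio of SNEB to MNEB for miR-206 was 1.65, a log2 fold change of 0.72 (SE 0.81), and it did not pass (adjusted p of 0.94 from edgeR). The mean level was 0.425 ± 0.240 RPM in MNEB and 0.981 ± 0.857 RPM in SNEB (SD, n = 4 each), and the exact permutation test, two-sided, gave p = 0.343. The higher SNEB mean rests on libraries 8S and 9S. Without 8S the log2 fold change was 0.11 and the difference in mean level fell from 0.556 to 0.240 RPM, while without 7S, the lowest, it rose to 0.852 RPM (exact permutation, p = 0.0571). With library 2M placed in SNEB the log2 fold change was 0.29. The smallest possible p of these permutation tests is 0.0286, with 70 assignments of all 8 libraries and also with the 35 assignments that remain when 1 library is left out.

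miR-1-2 lacked a read in 2 libraries and had no value in this fit. Its mean level was 0.0816 ± 0.0717 RPM in MNEB and 0.159 ± 0.182 RPM in SNEB (SD, n = 4 each), for which exact permutation gave p = 0.6, and the difference of 0.0771 RPM turned to -0.00505 RPM without 9S. In the wider fit over the 480 miRNA genes with a read in any library, in which 0.208% passed, miR-1-2 had a log2 fold change of 1.09 (SE 1.01), and edgeR gave an adjusted p of 0.802. None of the 7 muscle and neural genes in that fit passed, nor did any have an unadjusted p under 0.05, as 5.21% of the 480 did. For 4 of the 7, with 1 to 3 reads in total, the fit has too few reads to decide. Of these, miR-133a-1 and miR-133a-2 entered it through SNEB libraries alone. Permutation tests were run on these 3 genes, and the others had too few reads for one.

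Of the neural-enriched list, miR-128-1, miR-128-2, miR-129-2 and miR-212 entered the fit over 262 genes, and 0 of the 4 passed. Their median log2 fold change was near 0, as was that of all 262 genes, at 0.03. miR-212 had the smallest p of the 4, at 0.191 ± 0.132 RPM in MNEB and 0.475 ± 0.151 RPM in SNEB (SD, n = 4 each), which is 1.23 on the log2 scale of the fit (SE 0.59), with an adjusted p of 0.688 from edgeR.

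Fragments of mRNA gave a second readout of muscle in the same libraries. Of 22 gene entries for 21 striated muscle genes, 8 had 0 reads, among them the fast myosin heavy chains MYH1 and MYH2, myoglobin (MB) and fast troponin T (TNNT3). The list had 170 reads in all, and 102 of these belonged to titin (TTN), the giant protein of the sarcomere, with 2 to 27 reads per library. The 10 cardiac genes had 9 entries, 6 of them at 0, and 4 reads in all. The 21 neural genes had 19 entries, 8 of them at 0, GFAP, SYT1 and NEFL among them, and 29 reads in all.

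Over all 9 muscle miRNA genes, library 3M had the most reads, with 403, followed by 8S with 338 and 9S with 325, and most of these were reads of miR-499. These sums are not divided by depth, which was 30757376 reads in genes in 3M, 28526343 in 8S and 24682635 in 9S. Their order is therefore not an order of levels. Library 9S had the most reads of the 7 muscle miRNA genes other than miR-499 and miR-206, and of the striated muscle mRNAs. The 7 genes of miR-1, miR-133 and miR-208 had sums of 3, 2, 4 and 0 reads in libraries 2M to 5M, and of 4, 1, 14 and 1 reads in libraries 7S to 10S. Library 9S thus had 14 of the 29 reads (48.3%), while it held 11.9% of all reads in genes. The striated muscle genes without TTN had 5, 6, 11 and 7 reads in the MNEB libraries, and 6, 4, 22 and 7 in 7S, 8S, 9S and 10S. This was 0.891 RPM in 9S, against 0.140 to 0.477 RPM in the other 7 libraries. TTN was left out of this sum after the values had been seen.

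The genes behind the high sum in 9S were chosen after their values were seen. The 2 entries of MYH7 had 5 and 4 reads there, TNNT1, the slow troponin T, had 4, and CKM, the creatine kinase of muscle, had 3. These 4 entries had 16 reads in 9S and 5 in the other 7 libraries together. Other striated muscle genes did not share this pattern. ENO3, DES, PYGM, ACTA1 and CASQ1 had 0 reads in 9S and had reads in other libraries. TPM2 had 3 reads in 9S and 2 to 4 in the others, while NEB had 2 of its 3 reads in 9S. Of the fast fibre genes, MYH1, MYH2, TNNT3 and MYLPF had 0 reads in every library, the fast troponin I gene TNNI2 had 1 read, in 9S, and ATP2A1, the calcium pump of fast fibres, had 1 read, in 10S. Protein-coding fragments made up 0.590% of the reads in 9S, inside the range of 0.191% to 0.928%. miR-206 was also high in 9S, with 36 reads, and miR-499, with 275 reads, was not. In library 8S, which had the most reads of miR-206, the miR-1, miR-133 and miR-208 genes had 1 read, and the striated muscle genes without TTN had 4, the fewest of any library. Whether muscle RNA in 9S has a part in the levels of miR-206 and miR-1-2 was not tested.

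**Figure D4:**
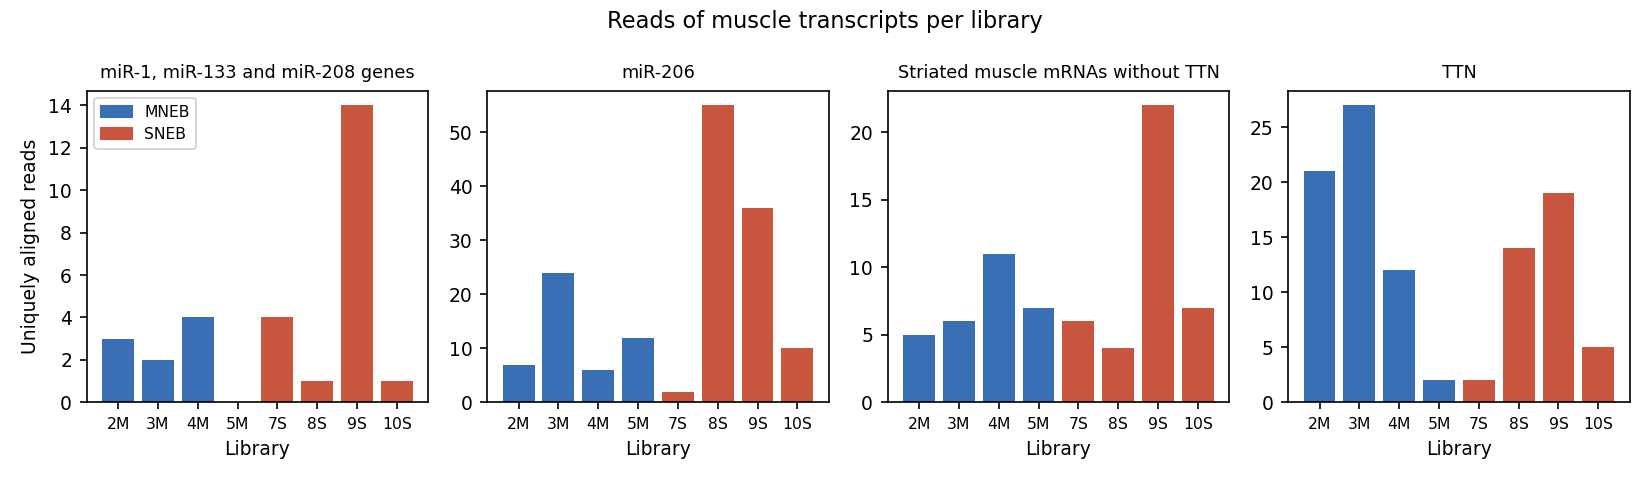
Uniquely aligned reads (vertical axis, a scale for each panel) per library (horizontal axis) of the 7 miR-1, miR-133 and miR-208 genes, of miR-206, of the striated muscle mRNAs without TTN and of TTN, with MNEB in blue and SNEB in red. Library 9S was highest in the first panel with 14 reads and in the third with 22, library 8S in the second with 55, and library 3M in the fourth with 27. The reads are not divided by depth.

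Of the muscle and neural genes on these lists, 5 (TTN, TPM2 and the smooth muscle genes ACTA2, MYH11 and TAGLN) had a read in every library, and 0 of the 5 passed edgeR's quasi-likelihood test over 4887 protein-coding genes, of which 0.839% passed. That held in each library left out in turn, although the count of calls over all genes, 41, moved between 7 and 165. For TTN the fit gave -1.20 on the log2 scale (SE 0.72) and an adjusted p of 0.596 from edgeR, and for TPM2 -0.18 (SE 0.59, adjusted p of 0.971). The smooth muscle genes had positive values, at 1.28 for ACTA2 (SE 0.51, unadjusted p of 0.0186, adjusted p of 0.315), 1.00 for MYH11 (SE 0.44, unadjusted p of 0.0318, adjusted p of 0.405) and 0.61 for TAGLN (SE 0.59, adjusted p of 0.776), all from edgeR. The smooth muscle list, whose cells line the vessels of the liver, summed to 0.325 to 1.48 RPM in MNEB and 1.26 to 2.17 RPM in SNEB.

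The miRNAs whose pattern was most like that of miR-499 over the 8 libraries, by Pearson's r of log2(RPM + 0.5) and given as a description, were miR-374a (0.976), miR-26b (0.973), miR-451 (0.965), miR-374b (0.964) and miR-98 (0.962). The likeness rests on library 5M, in which all of them were low. Without it the same values were 0.682, 0.597, 0.494, 0.394 and 0.400. For miR-206 the closest was miR-2320 at 0.725, and no gene reached 0.9, where 30 did for miR-499. None of the genes named here is a muscle miRNA of the list.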

How the data were processed

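Small RNA of 8 cow livers was sequenced on an Illumina HiSeq2000. The authors trimmed adaptors with Cutadapt 1.1, checked reads with FastQC 0.10.0, aligned them to UMD3.1 with Novoalign 2.07.11 and deposited counts of uniquely aligned reads per Ensembl gene, made with HTSeq 0.5.3p3. The sources used here do not give its strand setting. Several members overlap another gene in RefSeq, miR-499, miR-206, miR-1-2 and miR-133a-2 among them. Reads from the other strand cannot be told apart there. The deposited table holds 24616 genes and 3 entries that name no gene, which were left out. Library 8S was read from the column headed 6S, because its label names that column by letter. A second deposited table holds the authors' means and was not used. The 12 pairs of libraries within groups differed by more than sampling noise (smallest chi-square per degree of freedom 17.3).

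RPM was computed per library over its reads in all 24616 genes, and edgeR 4.0.16 (R 4.3.3) used the same totals with TMM factors from the genes tested. DESeq2 1.42.0, limma 3.58.1, other scalings and filters, 2M moved to SNEB, and omission of single libraries were the alternatives. P-values set the difference between groups against the spread between libraries, of which each cow gave 1. The fits were tested on simulated data. Permutation tests were enumerated in Python 3.11.15 with numpy 2.4.6, and intervals computed with scipy 1.17.1. A planned count of hairpins per mature sequence needs miRNA sequences and was not made.

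The text names every gene of the rule, the genes of fixed lists, the 3 genes ranked next above and below miR-499 and the next to miR-206, and the 5 most like a member with at least 5 reads per library on average (for miR-206 the first of them). The genes and lists were chosen with earlier results of these data known.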

Additional observations from a re-analysis of the deposited data

Results flagged for a closer look

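In 14 groups of 4 libraries examined for 1 library far from the others, 4 were found, all in sums of mRNA fragments with few reads. The cut-off flags about 1 in 20 groups of normally distributed values. That rate does not hold for sums of few reads, where 1 read in 1 library beside 0 in the others is always flagged. The striated muscle sums with and without TTN also share genes. The number flagged was therefore not set against chance. The striated muscle sum was 0.265 RPM in library 5M, below the other MNEB libraries, and without TTN it was 0.477 RPM in 4M, above them. The neural sum was 0.521 RPM in 4M, where S100B had 6 of the 12 reads. The cardiac sum of 0.0445 RPM in 10S is 1 read, with 0 in the other SNEB libraries. No level of miR-499, miR-206 or miR-1-2 stood this far from its group.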

How the results depend on the processing

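Over the alternatives, miR-206 kept a higher level in SNEB and a p above 0.05, with log2 fold changes of 0.11 to 1.20. miR-499 stayed above an adjusted p of 0.9 in the count tests, and its log2 fold change of -0.04 turned to 0.20 without scaling, 0.041 with limma voom and 0.13 with no filter. It ranged from -0.21 to 0.075 with 1 library left out, above 0 without MNEB library 3M or 5M. Its difference in RPM turned to -0.255 with TMM scaled totals, and ranged from -0.297 to 2.42 with 1 library left out. That of miR-1-2 ranged from -0.00505 to 0.130. The count of called miRNAs was 1 with DESeq2, with edgeR's exact test, and with no filter in edgeR's quasi-likelihood test. It was 0 in the quasi-likelihood test of the 262 miRNAs, also without each library. Genes detected in every library were 2 with 1 read as the minimum, against 1 with 3 reads. The calls over protein-coding genes, 41, were 146 with no filter, and 7 to 165 with 1 library left out (165 without 5M, 71 without 2M, 27 without 3M, 9 without 4M, and 7 without 7S, 8S or 10S). The median log2 fold change of the 262 miRNAs was 0.03 with TMM (119 lower) and -0.09 with RLE scaling (152 lower). A count of 0 allows up to 3 reads, or 0.139 RPM in the shallowest library. It does not bound the level of a mature miRNA whose reads align equally well to more than 1 gene. No member entered the fit above 10 RPM. The planned count of hairpins that share a mature sequence was not run.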
